A study of Mus musculus with 12 samples.

Results

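Genes of cholesterol synthesis, cholesterol efflux and oxysterol metabolism were followed in liver sinusoidal endothelial cells, the fenestrated endothelium of the hepatic capillaries. The set was a list of 34 mouse genes chosen by name, with earlier results of these data known. Of these genes, 33 had a row in the deposited table of 25428 probe sets (Soat1 is not analysed here). The samples called NICD-OE-HEC came from 6 pools of mice carrying Clec4g-Cre(tg/wt) and the allele Rosa26-N1ICD-IRES-GFP. The Cre, driven by regulatory sequence of the sinusoidal endothelial gene Clec4g, switches on the intracellular domain of Notch1 together with GFP. They were compared with 6 pools from Control mice, labelled Ctrl, whose full genotype is not stated in the labels; nor are the age and sex of any of the animals. Each pool held cells from 3 mice, selected magnetically with beads against CD146 after collagenase digestion and a density gradient, and was hybridized to 1 Affymetrix array. The comparison asks whether a change in Ch25h, the enzyme that makes 25-hydroxycholesterol, went together with the rest of the sterol pathway when Notch signalling was switched on.

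Cholesterol is built from acetyl units through mevalonate, squalene and lanosterol, and the genes of these steps are driven by the transcription factor SREBP-2, which SCAP carries to the Golgi when sterols are scarce and INSIG proteins hold back when sterols are plentiful. Oxysterols such as 25-hydroxycholesterol bind INSIG and so restrain this route, and they also activate the nuclear receptor LXR, whose targets include the cholesterol pumps ABCA1 and ABCG1. In the liver, sinusoidal endothelial cells and macrophages face the blood and exchange lipids with it, whereas hepatocytes make most of the cholesterol, lipoproteins and bile acids.

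The arrays carried the labelled cell type and some signal of others. The mean of 12 sinusoidal endothelial markers was 10.61 to 10.82 in NICD-OE-HEC and 10.83 to 11.11 in Control (log2 RMA units, used for all levels here), far above the array median of 3.67, and 3 of the 12 were called higher and 8 lower. Control 2 and NICD-OE-HEC 4 stood apart from the other arrays on the second principal component (16.4% of the variance), and they are left out together where that changes a result. The summed level of 10 hepatocyte markers ran from 11.42 to 12.81 in NICD-OE-HEC and from 10.49 to 11.80 in Control, with 7 of the 10 called higher. For 8 neutrophil markers the summed level was 8.92 to 10.79 in NICD-OE-HEC and 6.54 to 8.78 in Control (6 of 8 called higher), and for 11 Kupffer cell and macrophage markers it was 11.39 to 12.85 in NICD-OE-HEC and 11.22 to 12.54 in Control (2 of 11, Marco and Cx3cr1, called higher). All 11 macrophage markers differed by more than 0, with a median of 0.45 beside -0.01 for all probe sets, of which 10.5% were called. Of 5 cholangiocyte markers 5 were called higher (median log2 difference 0.84), and of 9 stellate cell and fibroblast markers 2 were called higher and 1 lower (9.39 to 9.96 in NICD-OE-HEC and 8.27 to 9.95 in Control). The part of these cells in the results was not tested beyond the covariates given. The mean of 13 early response genes, such as Fos and Egr1, which cell isolation can induce, lay between 7.66 and 9.36 in NICD-OE-HEC and between 6.42 and 7.79 in Control (11 of 13 called higher). RMA values carry no detection call and no zero, so levels near the array median cannot be told from background. In such bulk samples fewer cells of a type and less RNA per cell cannot be told apart.

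The 250 bases before the start of 3 member genes are shown because these genes stand for the branches that follow: the oxysterol enzyme Ch25h (chr19:34475149-34475398, minus strand), the efflux pump Abca1 (chr4:53159896-53160145, minus strand) and the synthesis gene Hmgcs1 (chr13:119690101-119690350, plus strand). The sequences are RefSeq's, on GRCm38.p6, read 5′ to 3′ on the strand of the gene, with capitals marking matches to 4 motifs searched on both strands.
Ch25h: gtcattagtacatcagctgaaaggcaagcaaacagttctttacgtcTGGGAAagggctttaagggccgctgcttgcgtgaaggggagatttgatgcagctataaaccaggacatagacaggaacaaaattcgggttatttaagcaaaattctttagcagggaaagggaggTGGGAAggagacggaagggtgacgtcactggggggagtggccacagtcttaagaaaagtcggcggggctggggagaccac
Abca1: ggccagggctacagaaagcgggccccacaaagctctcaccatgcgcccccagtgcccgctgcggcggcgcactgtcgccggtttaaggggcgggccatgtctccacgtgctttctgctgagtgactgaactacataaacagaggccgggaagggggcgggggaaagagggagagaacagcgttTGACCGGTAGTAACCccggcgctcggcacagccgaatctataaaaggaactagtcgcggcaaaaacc
Hmgcs1: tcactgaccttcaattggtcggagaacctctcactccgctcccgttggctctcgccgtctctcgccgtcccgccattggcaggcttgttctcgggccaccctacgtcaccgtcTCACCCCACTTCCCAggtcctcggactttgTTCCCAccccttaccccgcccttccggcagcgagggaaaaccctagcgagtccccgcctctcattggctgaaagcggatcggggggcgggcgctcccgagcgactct
The core letters of the Notch partner RBPJ, TGGGAA, occurred at 2 places in the Ch25h window, beginning 204 and 80 bases before the start, and at 2 places on the opposite strand of the Hmgcs1 window. They occurred in 21.6% of all 32851 windows and in 8 of the 26 member genes that had a window. A repeat bound by LXR, GGTNA followed after 5 bases by GGTCA, was present in Abca1 on the opposite strand, from 67 to 53 bases before the start, and in Srebf1, against 0.177% of all windows. The sterol response element, written as TCACNCCAC, matched Hmgcs1 alone among the 14 synthesis genes with a window, where it directly adjoins one of the RBPJ matches, and 1.05% of all windows held it. The AP-1 letters TGANTCA, in 6.75% of windows, matched Dhcr7 and Msmo1 among the members. A match of letters describes the window and does not show that a factor binds there.

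Across the set the change was carried by a few genes. By limma with Benjamini-Hochberg adjustment over all probe sets, 4 of the 33 member genes were higher in NICD-OE-HEC (Ch25h, Abca1, Fdft1 and Sqle) and 3 were lower (Abcg1, Cyp7b1 and Mvk) at an adjusted p under 0.05. Of all probe sets, 10.5% were called in either direction, 4.89% higher and 5.59% lower. Because the members were chosen with results known, setting their calls beside these shares is descriptive only. The median log2 difference of the 33 genes, NICD-OE-HEC minus Control, was -0.10, beside -0.01 for all probe sets. The groups did not overlap for Ch25h and Abca1 alone among the 33, both with NICD-OE-HEC higher, beside 6.68% of all probe sets (2.98% higher, 3.7% lower).

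**Figure D1:**
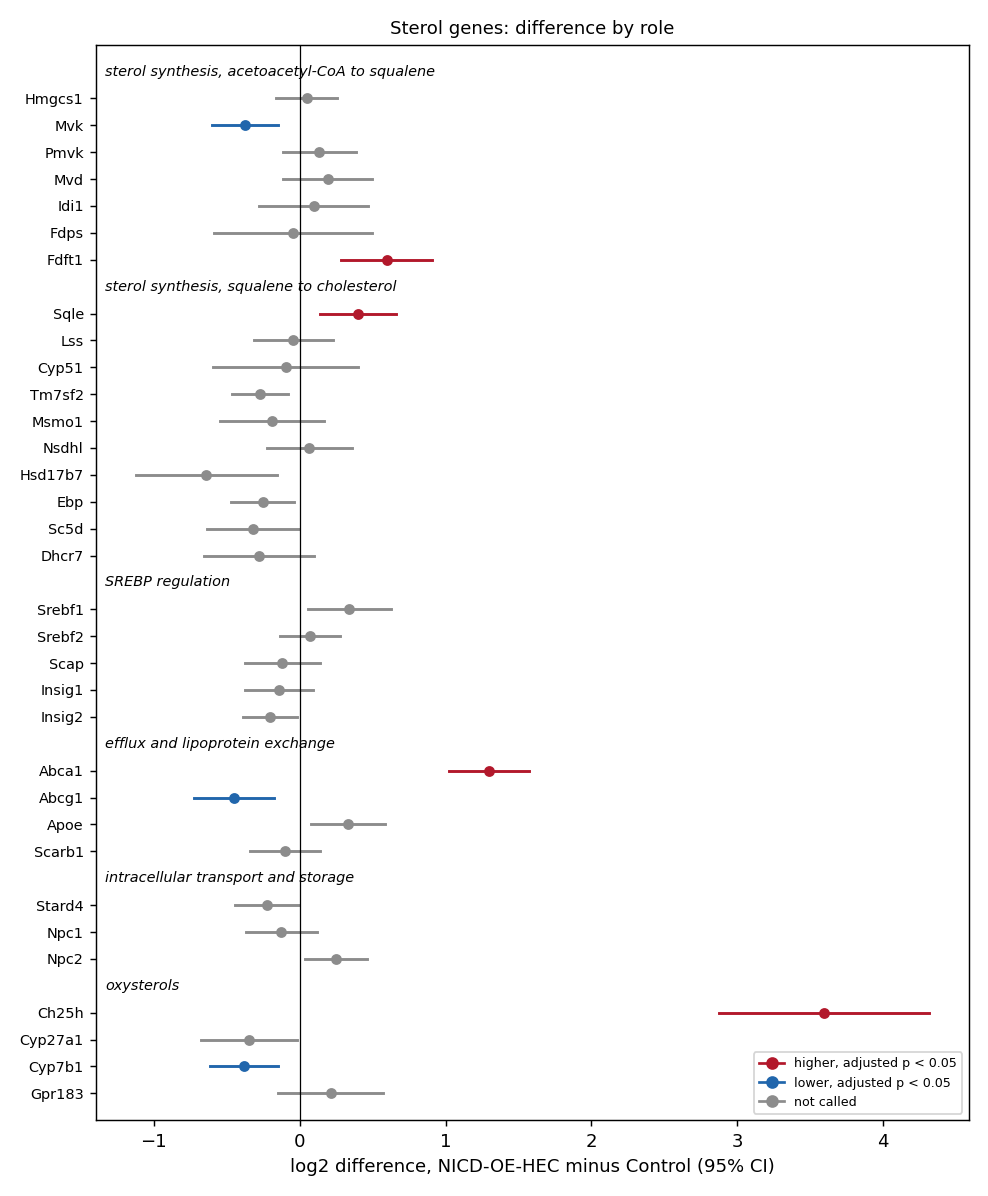
Log2 difference (NICD-OE-HEC minus Control, x axis) of the 33 sterol genes, ordered by role, with limma's 95% confidence interval as a bar; n = 6 arrays a group. Ch25h (3.59) and Abca1 (1.30) lie far to the right, and the intervals of 10 of the 17 synthesis genes span 0.

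Ch25h showed by far the widest difference of the set. Its lowest, median and highest levels were 6.64, 7.14 and 8.88 in NICD-OE-HEC, against 2.97, 3.92 and 4.38 in Control. All 6 NICD-OE-HEC arrays lay above every Control array, and the highest value was on NICD-OE-HEC 5. Ch25h averaged 7.37 ± 0.83 in NICD-OE-HEC and 3.78 ± 0.53 in Control (SD, n = 6 each), a log2 difference of 3.59 (SE 0.34, 95% CI 2.87 to 4.31, limma adjusted p = 3.80e-06), or 12.1-fold. On 2 Control arrays the level lay below the array median, so the size of the fold is not exact. NICD-OE-HEC 5 also had the highest early response mean (9.36), while Control 5, with the highest early response mean of its group (7.79), had a Ch25h level of 3.77. Adding the early response mean to the model gave a log2 difference of 2.21 (SE 0.43, limma adjusted p = 0.0142), the macrophage marker mean 4.14, the hepatocyte marker mean 4.17 and the neutrophil marker mean, a covariate added after seeing the data, 3.12. All of these were called.

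Of the other 3 oxysterol genes 1 was called lower and 2 were not called. Cyp7b1, the hydroxylase that turns 25-hydroxycholesterol into the next product of the branch, was 3.86, 4.03 and 4.21 (lowest, median, highest) in NICD-OE-HEC, against 4.13, 4.38 and 4.79 in Control. The groups overlapped, with 4 NICD-OE-HEC arrays below all Control arrays, and both sat little above the array median. Cyp7b1 fell by 0.38 on the log2 scale (SE 0.11, limma adjusted p = 0.0372). Leaving out 1 array gave values from -0.44 to -0.31, and the call was lost (adjusted p up to 0.0831) without NICD-OE-HEC 1, 2, 5 or 6 or Control 1, 3, 4 or 6, as it was with the early response (-0.46, adjusted p = 0.365), macrophage (-0.32, adjusted p = 0.210), hepatocyte (-0.23, adjusted p = 0.488) or neutrophil mean (-0.21, adjusted p = 0.726) as a covariate. Cyp27a1, the mitochondrial sterol hydroxylase, had a log2 difference of -0.35 (95% CI -0.68 to -0.02, adjusted p = 0.203) and was called lower only with the hepatocyte (-0.67, adjusted p = 0.0400) or macrophage mean (-0.62, adjusted p = 0.0159) as a covariate.

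Gpr183, the receptor through which oxysterols steer B cells, dendritic cells and other leukocytes, stood at 4.39 to 4.92 in NICD-OE-HEC and 4.10 to 5.23 in Control. The highest of all its values was on Control 2, one of the arrays that stood apart, and the log2 difference was 0.21 (95% CI -0.14 to 0.57, adjusted p = 0.536). Without Control 2 it was 0.37 and passed the test (limma adjusted p = 0.0452). Of 6 B cell markers on the same arrays none was called by limma, with a median difference of 0.01, and the summed level of those 6 ran from 6.19 to 7.12 in NICD-OE-HEC and from 6.35 to 6.76 in Control. Among 6 dendritic cell markers 1 was called higher and 1 lower (differences from -0.99 to 2.22, median 0.02). None of 8 T and NK cell markers was called, with 7 of the 8 above 0 (median 0.19).

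The cholesterol efflux pumps moved in opposite directions. Abca1, which loads cholesterol onto apolipoprotein A-I, had lowest, median and highest levels of 8.07, 8.16 and 8.37 in NICD-OE-HEC, against 6.63, 6.81 and 7.46 in Control. All NICD-OE-HEC arrays lay above the Control arrays, of which Control 1 was the highest. The means were 8.19 ± 0.11 in NICD-OE-HEC and 6.90 ± 0.31 in Control (SD, n = 6 each), 2.46-fold apart (log2 difference 1.30, SE 0.13, limma adjusted p = 6.60e-06). Leaving out 1 array at a time gave 1.25 to 1.41, and Abca1 was called in all 24 alternative fits.

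Abcg1, which passes cholesterol to mature HDL, ran from 7.35 to 8.04 with a median of 7.75 in NICD-OE-HEC, and from 7.93 to 8.45 with a median of 8.16 in Control. The groups overlapped, and 4 NICD-OE-HEC arrays lay below all Control arrays. Abcg1 fell by 0.45 on the log2 scale (SE 0.13, limma adjusted p = 0.0371). Its call was lost without NICD-OE-HEC 3, 4, 5 or 6 or Control 1, 3, 4 or 5, with values from -0.51 to -0.37 and adjusted p up to 0.0921 when 1 array was left out, and with the early response (-0.33, adjusted p = 0.729), hepatocyte (-0.58, adjusted p = 0.0707) or neutrophil mean (-0.70, adjusted p = 0.135) as a covariate.

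The lipoprotein partners of efflux gave no call. Apoe, the apolipoprotein made by hepatocytes and macrophages, had a lowest and median level of 10.29 and 10.49 in NICD-OE-HEC, against 10.10 and 10.23 in Control, a log2 difference of 0.33 (95% CI 0.08 to 0.59, adjusted p = 0.0991). With array weights it just passed the test (0.33). NICD-OE-HEC 2, 3 and 4 lay above all Control arrays. Their hepatocyte marker means were 8.42, 7.77 and 8.14, against 6.58 to 8.08 in Control. NICD-OE-HEC 1, with the highest hepatocyte mean (8.96), had an Apoe level of 10.40. Apoe was not called with the hepatocyte mean as a covariate, and the part of those cells in this value was not tested further. Scarb1, the HDL receptor SR-BI, differed by -0.10 (95% CI -0.34 to 0.14, adjusted p = 0.701).

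**Figure D2:**
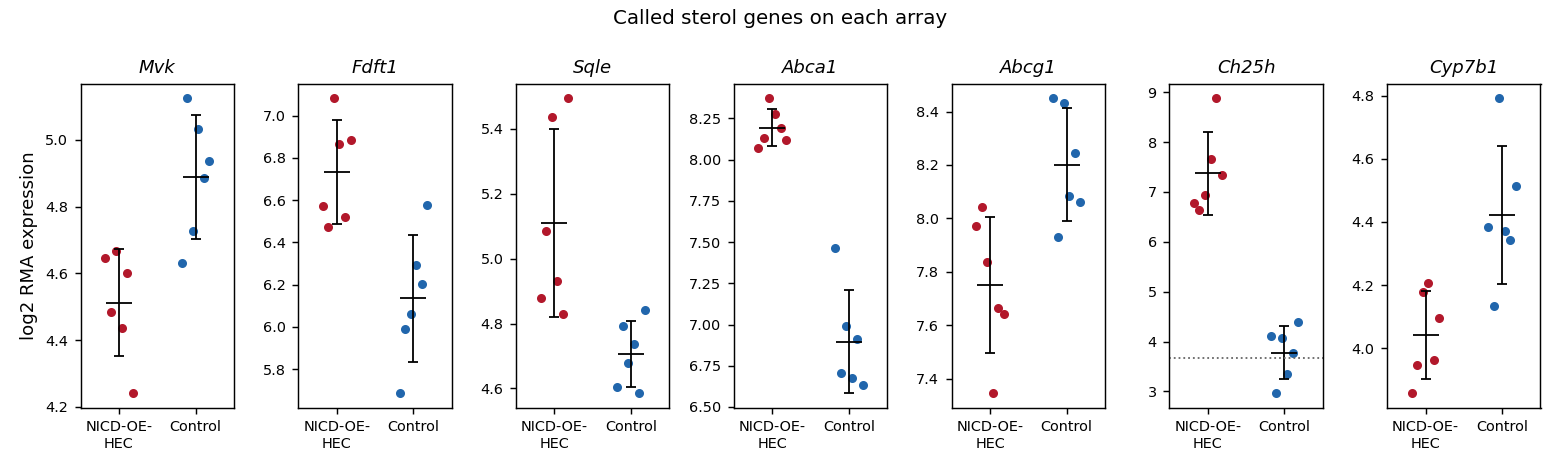
Log2 RMA expression (y axis, own scale in each panel) of the 7 called sterol genes on the 6 NICD-OE-HEC (left, red) and 6 Control arrays (right, blue), with mean and SD in black; the dotted line in the Ch25h panel is the array median of 3.67. The groups are apart for Ch25h and Abca1 and overlap for the other 5.

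The steps from acetoacetyl-CoA to squalene showed 1 gene higher and 1 lower among 7. That was 28.6%, beside 10.5% of all probe sets, but a share of so few genes is imprecise. Fdft1, squalene synthase, which commits farnesyl diphosphate to sterols, had lowest, median and highest levels of 6.47, 6.72 and 7.08 in NICD-OE-HEC, against 5.69, 6.13 and 6.58 in Control. It rose by 0.60 (SE 0.15, limma adjusted p = 0.0145), 1.51-fold, with 3 NICD-OE-HEC arrays above all Control arrays. The call held for each single array left out (0.51 to 0.69), but was lost without both Control 2 and NICD-OE-HEC 4 (0.54, adjusted p = 0.0524) and with the early response (0.52, adjusted p = 0.510) or neutrophil mean (0.91, adjusted p = 0.0684) as a covariate.

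Mvk, mevalonate kinase, went the other way at 4.24, 4.54 and 4.67 in NICD-OE-HEC, against 4.63, 4.91 and 5.12 in Control. It fell by 0.38 on the log2 scale (SE 0.11, limma adjusted p = 0.0323), with 4 NICD-OE-HEC arrays below all Control arrays. The call was lost without NICD-OE-HEC 2, 4 or 6 or Control 2, 4, 5 or 6 (-0.43 to -0.32 and adjusted p up to 0.0784 when 1 array was left out), without both arrays that stood apart (-0.31, adjusted p = 0.0931) and with the replicate number as a block (adjusted p = 0.0897). With the early response (-0.32, adjusted p = 0.630), macrophage (-0.35, adjusted p = 0.151), hepatocyte (-0.37, adjusted p = 0.203) or neutrophil mean (-0.39, adjusted p = 0.406) as a covariate the call was lost while the size stayed close to -0.38.

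The other 5 genes of this stretch were not called. Hmgcs1, the HMG-CoA synthase, was 6.75 to 7.28 in NICD-OE-HEC and 6.84 to 7.07 in Control, and its log2 difference of 0.05 had a 95% CI of -0.16 to 0.26. Pmvk and Mvd, which phosphorylate and decarboxylate the mevalonate intermediates, differed by 0.14 (95% CI -0.12 to 0.39) and 0.19 (95% CI -0.11 to 0.50). Idi1, the isopentenyl diphosphate isomerase, differed by 0.10 (95% CI -0.28 to 0.47). Fdps, the farnesyl diphosphate synthase, differed by -0.05, and with 3 arrays of each group below the array median its interval was wide (-0.59 to 0.50).

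From squalene to cholesterol 1 of 10 genes passed the test, beside 10.5% of all probe sets, again an imprecise share of few genes. Sqle, squalene epoxidase, a rate-limiting enzyme of the route, had lowest, median and highest levels of 4.83, 5.01 and 5.49 in NICD-OE-HEC, against 4.59, 4.71 and 4.84 in Control. 5 NICD-OE-HEC arrays lay above all Control arrays, NICD-OE-HEC 3 and 6 the furthest. Sqle rose by 0.40 (SE 0.12, limma adjusted p = 0.0494), 1.32-fold, close to the threshold. Over single arrays left out the difference ran from 0.33 to 0.46 and the adjusted p up to 0.109, and the call held only without NICD-OE-HEC 1, 4 or 5. It was also lost with an intensity trend in the variance (adjusted p = 0.0651) and with the early response (0.50, adjusted p = 0.391), macrophage (0.43, adjusted p = 0.119), hepatocyte (0.52, adjusted p = 0.0915) or neutrophil mean (0.62, adjusted p = 0.180) as a covariate.

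The 9 genes after Sqle gave no call, and 8 of the 9 had values below 0. Tm7sf2, a sterol reductase, differed by -0.27 (95% CI -0.46 to -0.08, adjusted p = 0.0699), with 4 NICD-OE-HEC arrays below all Control arrays. It was called lower with the neutrophil mean as a covariate (-0.57, limma adjusted p = 0.0301) and without the dimmest 50 percent of probe sets (adjusted p = 0.0386). Hsd17b7, the ketosteroid reductase of this route, differed by -0.64 (95% CI -1.12 to -0.16, adjusted p = 0.0940), but all 6 NICD-OE-HEC and 3 Control arrays lay below the array median. With array weights it was called lower (-0.70, limma adjusted p = 0.0481). Ebp, the sterol isomerase, differed by -0.25 (95% CI -0.47 to -0.04) and was called lower without both arrays that stood apart (-0.34, adjusted p = 0.0418) and with array weights (-0.30, adjusted p = 0.0434). Sc5d, a desaturase, differed by -0.32 (95% CI -0.63 to -0.0043), and Dhcr7, which makes cholesterol in the last step, by -0.28 (95% CI -0.65 to 0.10). The lowest Dhcr7 value, 4.38, was on NICD-OE-HEC 4, and without that array the difference was -0.11.

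The oxidative demethylation genes varied more between arrays than between groups. Cyp51, the lanosterol demethylase, spread from 3.46 to 4.91 in NICD-OE-HEC and from 4.00 to 4.64 in Control, a log2 difference of -0.10 (95% CI -0.59 to 0.40). Its high values were on NICD-OE-HEC 1 and 2 and its low ones on NICD-OE-HEC 3 and 4. Msmo1, the methylsterol oxidase, differed by -0.19 (95% CI -0.55 to 0.17) and Nsdhl, which removes the oxidized carbon, by 0.07 (95% CI -0.22 to 0.36). Lss, lanosterol synthase, stayed below the array median on every array, where a difference of -0.04 cannot be told from background. Over both stretches 17 synthesis genes had 2 called higher, 1 called lower and a median log2 difference of -0.05.

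None of the 5 SREBP regulators was called by limma. Srebf1, which encodes the SREBP forms that favour fatty acid genes, was 6.09 to 6.71 in NICD-OE-HEC and 5.84 to 6.50 in Control, a log2 difference of 0.34 (95% CI 0.06 to 0.63, adjusted p = 0.136). It passed the test without Control 5 (0.43, limma adjusted p = 0.0417), the Control array with the highest Srebf1 value, and with the replicate number as a block (0.34, limma adjusted p = 0.0463). Srebf2, which drives the synthesis genes, differed by 0.07 (95% CI -0.13 to 0.28) and its escort Scap by -0.12 (95% CI -0.38 to 0.14). The retention factor Insig1, itself a target of SREBP-2, differed by -0.14 (95% CI -0.37 to 0.09). Its relative Insig2 was 5.61 to 5.79 in NICD-OE-HEC and 5.63 to 6.03 in Control (-0.20, 95% CI -0.39 to -0.02, adjusted p = 0.171), and passed only without Control 2 (-0.26, limma adjusted p = 0.0408), whose value of 5.63 was the lowest of its group.

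Genes of sterol transport inside the cell gave no call either. Stard4, a soluble sterol carrier and SREBP-2 target, differed by -0.22 (95% CI -0.44 to -0.0050, adjusted p = 0.217), with 4 NICD-OE-HEC arrays below all Control arrays. NICD-OE-HEC 4 held the highest value of its group, 7.12, and without it the difference was -0.29 (limma adjusted p = 0.0713). Npc1 and Npc2, the lysosomal pair that releases cholesterol from digested lipoprotein, differed by -0.12 (95% CI -0.37 to 0.12) and 0.25 (95% CI 0.04 to 0.46, adjusted p = 0.147). Npc2 lay above all Control arrays on 4 NICD-OE-HEC arrays.

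**Figure D3:**
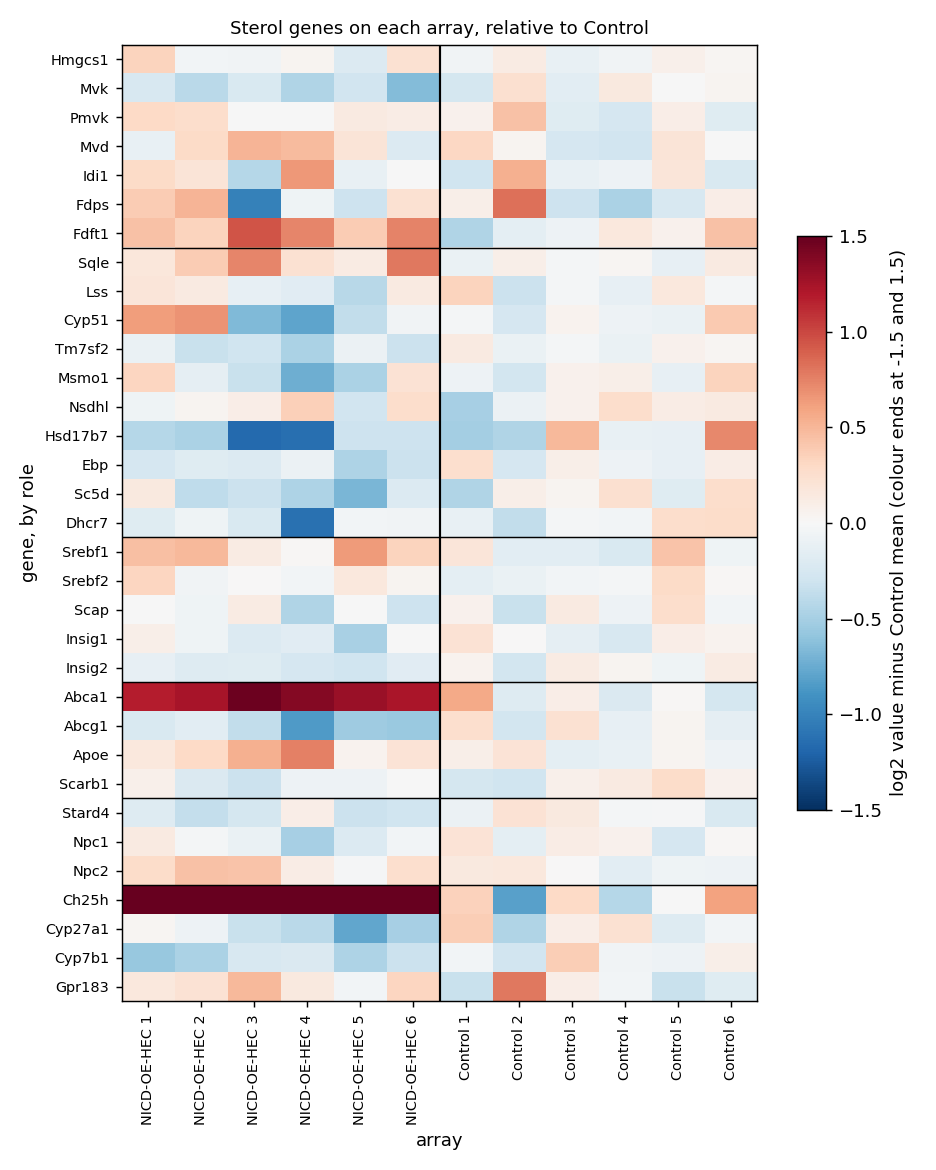
Each cell is the log2 value of 1 of the 33 sterol genes (rows, by role, with lines between roles) on 1 array (columns, 6 NICD-OE-HEC left of 6 Control) minus the Control mean of that gene. Ch25h and Abca1 form unbroken red rows over NICD-OE-HEC, while Cyp51 and Fdps change sign between arrays of that group.

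Within each group Ch25h was set against every other probe set to see which genes varied with it from pool to pool. Of 50852 relations none passed adjustment for Pearson's r or Spearman's rho (smallest adjusted p 0.731 and 0.837 by exact permutation over 720 orders, n = 6 in each group). For r the smallest p that 720 orders allow is 0.00139, and for rho it is larger. Even at 0.00139 at least 1413 relations would be needed for any to pass. The absence of a pass was thus close to fixed by the number of arrays and says little about single relations. At an unadjusted exact permutation p under 0.05 there were 3274 for r (6.44%) and 2037 for rho, and 9 of the 64 relations with members were among those for r. For the 17 synthesis genes the median r was -0.342 in NICD-OE-HEC (3 of 17 above 0) and 0.179 in Control (9 of 17 above 0), beside 0.0022 and -0.0131 for all probe sets. Without the 2 arrays farthest from the Ch25h median the synthesis medians were -0.0718 in NICD-OE-HEC and 0.0782 in Control. These values describe 6 arrays a group, and the points share each array's mixture of cells. In Control, Ch25h ran from 2.97 to 4.38, near the array median of 3.67, and lay below it on 2 arrays. Its relations in Control therefore cannot be told from those of background signal.

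For Ch25h and Abca1, which both separated the groups, 6 arrays a group could not show whether they varied together. In NICD-OE-HEC r was 0.141 (exact permutation p = 0.790, adjusted p = 0.979) and rho 0.371 (exact permutation p = 0.497, adjusted p = 0.974), and r was 0.0414 without the 2 farthest arrays. In Control r was 0.375 (exact permutation p = 0.481, adjusted p = 0.927) and rho 0.0857 (exact permutation p = 0.919, adjusted p = 1.00), and r was -0.251 without the 2 farthest arrays.

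The early response genes had a median r with Ch25h of 0.851 in NICD-OE-HEC and 0.411 in Control, with 13 of 13 above 0 in both groups. Without the 2 farthest arrays the medians were 0.513 in NICD-OE-HEC and -0.638 in Control. The macrophage markers had a median r of -0.872 in NICD-OE-HEC, with 0 of 11 above 0, and of -0.174 in Control, with 4 of 11 above 0. Negative medians in NICD-OE-HEC were not particular to macrophages: hepatocyte markers had -0.706 (0 of 10 above 0) and B cell markers -0.691 (0 of 6 above 0). Neutrophil markers had 0.219 (8 of 8 above 0), and the remaining marker lists ran from -0.396 to 0.107. NICD-OE-HEC 5, with the highest Ch25h, had the lowest macrophage (7.56) and hepatocyte (7.48) marker means of its group.

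**Figure D4:**
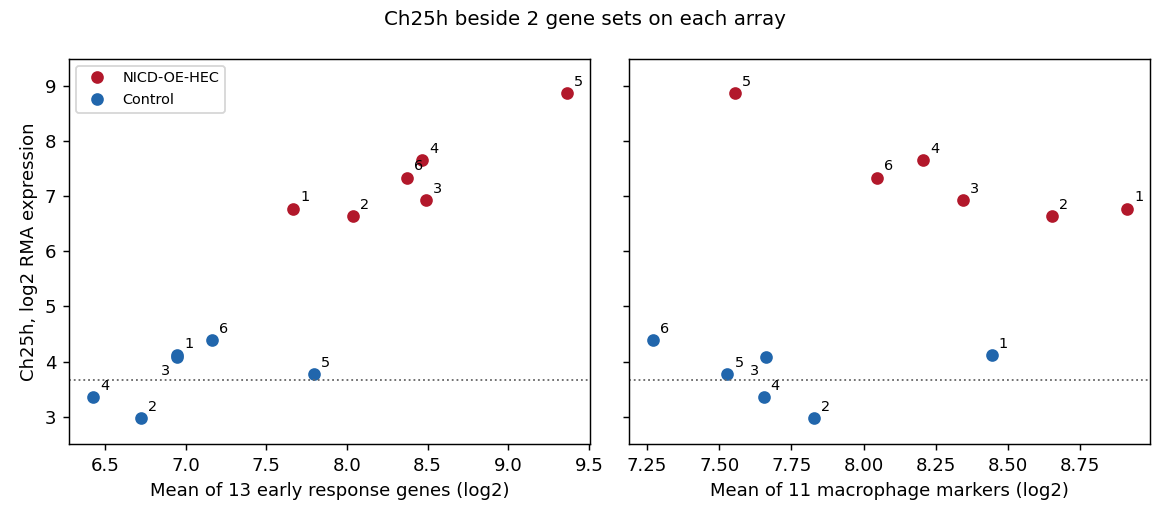
Ch25h (y axis, log2 RMA expression) against the mean of 13 early response genes (left) and of 11 macrophage markers (right) on each array, numbered by replicate, with NICD-OE-HEC in red and Control in blue; the dotted line is the array median of 3.67. Every NICD-OE-HEC array lies above every Control array in Ch25h, and NICD-OE-HEC 5 combines the highest Ch25h (8.88) with the highest early response mean (9.36).

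Genes of neighbouring lipid pathways were called in both directions. Of 47 further sterol and lipid genes with a row, 7 were higher and 7 lower in NICD-OE-HEC, or 29.8%, beside 10.5% of all probe sets. By list, 45.5% of the fatty acid targets of SREBP were called, 22.2% of the genes listed with LXR, 12.5% of the oxysterol and bile acid enzymes and 42.9% of the uptake and transport genes. These genes, too, were chosen with results known. Among 11 fatty acid targets of SREBP 4 rose and 1 fell, with a median log2 difference of 0.21. Fasn, fatty acid synthase, was 5.60, 5.93 and 6.37 (lowest, median, highest) in NICD-OE-HEC, against 4.29, 4.90 and 5.25 in Control, without overlap (log2 difference 1.11, limma adjusted p = 3.18e-04). The desaturases Scd1 (1.30, limma adjusted p = 0.00490), Scd2 (1.26, limma adjusted p = 1.78e-05) and Fads2 (0.76, limma adjusted p = 0.00140) rose, and Fads1, the partner desaturase of Fads2, fell by 0.45 on the log2 scale.

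These fatty acid calls differed in how they met the covariates. Scd2 kept its call under all 24 alternatives (1.07 to 1.43). Fasn lost it with the early response (1.03, adjusted p = 0.113) or neutrophil mean (0.70, adjusted p = 0.247), and Fads2 with the early response mean (0.96, adjusted p = 0.0545). Scd1, abundant in hepatocytes, lost it with the hepatocyte (0.53, adjusted p = 0.250), macrophage (0.82, adjusted p = 0.0705) or neutrophil mean (1.17, adjusted p = 0.299). With the early response mean Scd1 kept its call at 2.55 (limma adjusted p = 3.16e-04), so its size varied widely with the covariate. Fads1 lost it with the early response (-0.26, adjusted p = 0.673), hepatocyte (-0.43, adjusted p = 0.102) or neutrophil mean (-0.34, adjusted p = 0.426). The remaining 5 genes of sterol synthesis and SREBP processing gave no call, the widest differences being Tmem97 (-0.26, adjusted p = 0.723) and Acat1 (-0.11, adjusted p = 0.481).

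Of 9 genes listed with LXR 2 fell and none rose by limma, with a median of -0.21. Mylip, an LXR target that encodes a ubiquitin ligase for lipoprotein receptors, was 8.85, 9.09 and 9.37 in NICD-OE-HEC, against 9.91, 10.03 and 10.18 in Control. Its groups did not overlap, and it fell by 0.93 on the log2 scale (SE 0.10, limma adjusted p = 1.78e-05). Abca7 was listed as a relative of Abca1 and is not taken here as an LXR target. It was 4.54, 4.80 and 5.39 in NICD-OE-HEC, against 5.90, 6.16 and 6.28 in Control, and fell by 1.22 (SE 0.13, limma adjusted p = 1.74e-05). Abca1 was higher while Abcg1 and Mylip were lower, and the Abcg1 call was lost on leaving out any 1 of several arrays. Nr1h3, which encodes LXR alpha, differed by 0.57 without a call (limma adjusted p = 0.0692). Srebf1, whose window held the LXR repeat, differed by 0.34 without a call. Of the 9 listed genes 4 had values above 0 and 5 below, and LXR activity was not tested.

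Receptors and carriers of sterol also split, with 2 of 14 higher and 4 lower. Vldlr, the receptor for very low density lipoprotein, was 3.49 to 4.59 in NICD-OE-HEC, against 2.41 to 3.02 in Control, where every array lay below the array median (log2 difference 1.21, limma adjusted p = 2.92e-04). It lost its call with the early response mean in the model (0.64, adjusted p = 0.360). Gramd1c and Gramd1b, Aster proteins that carry cholesterol from the plasma membrane to the endoplasmic reticulum, fell by 1.39 (SE 0.11, limma adjusted p = 8.04e-07) and by 0.43 (limma adjusted p = 0.0182). Gramd1c had a median of 3.91 in NICD-OE-HEC and 5.36 in Control, without overlap. Gramd1b lost its call without Control 3 (-0.38, adjusted p = 0.0501).

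The remaining calls of that list were smaller. The oxysterol-binding Osbpl2 fell by 0.49 on the log2 scale (limma adjusted p = 0.00747), the lysosomal receptor Scarb2 fell by 0.54 (limma adjusted p = 0.00808) and the fatty acid receptor Cd36 rose by 0.51. Among 8 oxysterol and bile acid enzymes Cyp39a1, an oxysterol hydroxylase of liver, was the one called. It was 4.35 to 4.95 in NICD-OE-HEC and 3.22 to 4.25 in Control, where 2 arrays lay below the array median, so the size of its rise is not exact. It rose by 0.76 (limma adjusted p = 0.00903) on arrays whose hepatocyte markers were higher, and by 1.07 with the hepatocyte mean in the model (limma adjusted p = 0.00555). The early response (0.30, adjusted p = 0.824) or neutrophil mean (0.60, adjusted p = 0.432) ended its call. Gramd1b, Osbpl2, Scarb2 and Cd36 lost their calls with either of these means too. Cd36 was then 0.69 with the early response mean (adjusted p = 0.0555) and 0.60 with the neutrophil mean (adjusted p = 0.0995), no smaller than without them. Osbpl2 was -0.32 (adjusted p = 0.618) and -0.72 (adjusted p = 0.0522), Gramd1b -0.15 and -0.23, and Scarb2 -0.30 and -0.34, in the same order. With the hepatocyte mean Gramd1b (-0.47, adjusted p = 0.109), Scarb2 (-0.49, adjusted p = 0.131) and Cd36 (0.45, adjusted p = 0.0782) lost their calls at little changed size.

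**Figure D5:**
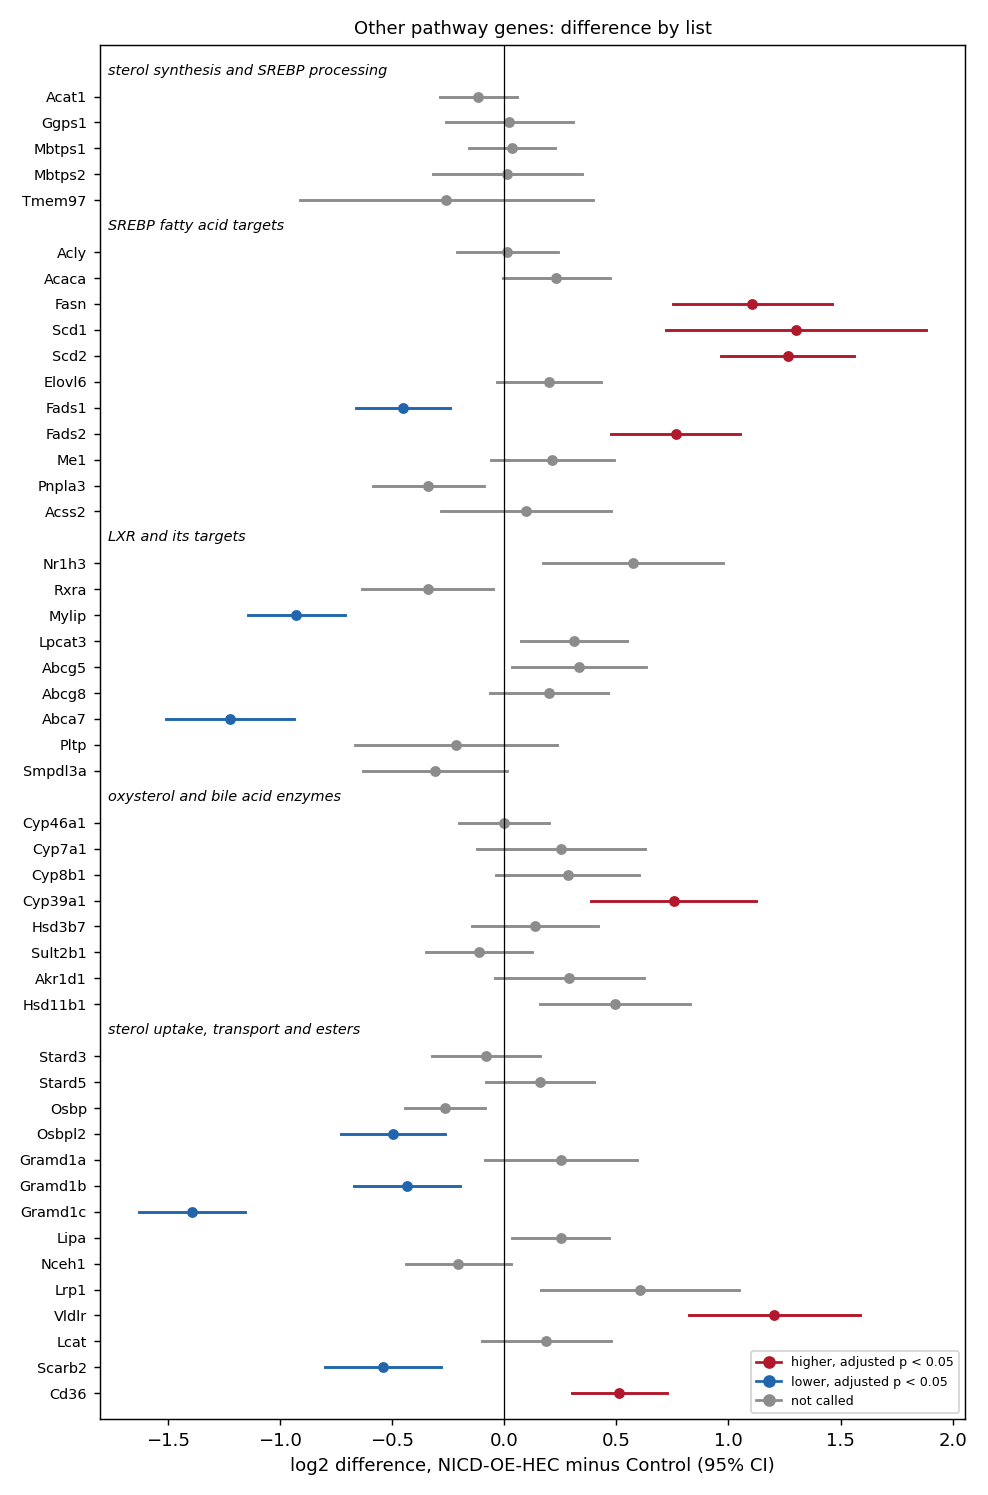
Log2 difference (NICD-OE-HEC minus Control, x axis) of 47 further sterol and lipid genes in 5 lists, with limma's 95% confidence interval; n = 6 arrays a group. Fasn, Scd1, Scd2 and Vldlr lie above 1, Abca7 and Gramd1c below -1, and the 5 genes of sterol synthesis and SREBP processing lie around 0.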

How the data were processed

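Expression was measured on 12 Affymetrix arrays, 6 of NICD-OE-HEC and 6 of Control. The values deposited by the authors, 1 for each probe set and array, were made with RMA per the submitters' processing notes and were taken here as log2, RMA's usual output. Their log base is not stated; their range, 0.818 to 13.4, allows it, and every fold rests on it. No source used here names the software, chip definition or genome build. All arrays share their quantiles, except for a minute offset on Control 1 (median 3.674581 against 3.674316), so a shift of most genes would not show. Genes were named from the platform annotation of 2018 (24705 probe sets with 1 symbol, 723 with none), and all 33 members matched RefSeq by Entrez identifier. The labels call the samples biological replicates. 6 arrays a group limit the precision.

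Differences are NICD-OE-HEC minus Control from limma 3.58.1 in R 4.3.3 (lmFit, eBayes, no covariates), two-sided, with Benjamini-Hochberg adjustment across the 25428 probe sets and no filter. SE is limma's moderated one. Marker levels are means of log2 values, or the log2 of summed linear values where called summed. Within-group relations were tested by two-sided exact permutation. The limma step and the correlation step were tested on simulated data. Every member is named, and of the other lists every called gene or the 2 widest differences. The members, lists, motifs and alternatives were chosen with earlier results of these data known.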

Additional observations from a re-analysis of the deposited data

Results flagged for a closer look

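A lone array lay far from the other 5 of its group in 2 of the 94 groups examined (47 named genes in each of 2 groups), where chance gives about 1 such group in 20. Dhcr7 was 4.38 on NICD-OE-HEC 4, below the next value of 5.27. Stard4 was 7.12 on the same array, above the next value of 6.82. NICD-OE-HEC 4 is one of the arrays that stood apart on the second principal component.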

How the results depend on the processing

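Median centring, a further quantile normalization and leaving out the dimmest 25 percent of probe sets kept the same 7 member calls, and Ch25h and Abca1 were called in all 24 alternatives. Genes called lower among the members (3) numbered 1 with an intensity trend and robust eBayes, 5 with array weights, 0 with the early response mean in the model, 1 with the hepatocyte mean, 1 with the neutrophil mean and 0 to 3 when 1 array was left out. Those called higher (4) numbered 2 with the early response mean and 2 with the neutrophil mean. Of all probe sets, 377 higher and 279 lower were called with the early response mean, 749 and 753 with the hepatocyte mean, and 342 and 435 with the neutrophil mean. The early response means (7.66 to 9.36 in NICD-OE-HEC, 6.42 to 7.79 in Control) hardly overlapped between groups. Nor did the neutrophil means (4.96 to 7.01 in NICD-OE-HEC, 3.35 to 4.99 in Control). The SE of Fasn rose from 0.17 to 0.31 with the early response mean and to 0.27 with the neutrophil mean. A call lost in such a fit does not by itself show a smaller difference. The cause of these losses was not tested. The median r of Ch25h with the synthesis genes was -0.0718 in NICD-OE-HEC and 0.0782 in Control without the 2 arrays farthest from the Ch25h median. No sign change involved a call by limma: 15 uncalled members changed sign somewhere. With the early response mean these were Mvd (-0.10), Fdps (0.47), Lss (0.14), Cyp51 (0.47), Msmo1 (0.20), Sc5d (0.17), Srebf2 (-0.043), Insig1 (0.024), Npc1 (0.16) and Cyp27a1 (0.16). With the macrophage mean it was Hmgcs1 (-0.021), with the hepatocyte mean Hmgcs1 (-0.044), Pmvk (-0.020) and Idi1 (-0.055), and with the neutrophil mean Hmgcs1 (-0.0085), Pmvk (-0.030), Fdps (0.032), Srebf1 (-0.041) and Srebf2 (-0.12). Array weights turned Fdps (0.12), and leaving out Control 2 and NICD-OE-HEC 4 turned Fdps (0.12) and Nsdhl (-0.0090). Over single arrays left out Hmgcs1 ran from -0.0078 to 0.10, Fdps from -0.16 to 0.15, Cyp51 from -0.25 to 0.043, Idi1 from -0.013 to 0.21, Lss from -0.11 to 0.030 and Nsdhl from -0.031 to 0.14. Same-numbered arrays of the groups deviated with correlations from -0.10 to 0.22, above 0.1 for numbers 1, 5 and 6, and numbers 1 and 5 matched their own number best. Number 1 had the highest hepatocyte mean and number 5 the highest early response mean in both groups. Whether some numbers share a source was not tested. Since not every pair correlated and the labels give no shared day or litter, the numbers were not taken as pairs. With the replicate number as a block 2507 probe sets were called, against 2666, Mvk lost its call (adjusted p = 0.0897) and Srebf1 gained one (adjusted p = 0.0463).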

Other observations

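Of 11 measured interferon response genes 3 were called (27.3%, beside 10.5% of all probe sets). Isg15 rose by 0.60 (limma adjusted p = 0.00483), Rsad2 fell by 0.87 on the log2 scale (limma adjusted p = 4.00e-05) and Ifit2 fell by 0.70 (limma adjusted p = 0.00144), and the median difference of the 11 was 0.05. Their median r with Ch25h was 0.0904 in NICD-OE-HEC and -0.150 in Control.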
